A study of Danio rerio with 28 samples.

Results

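Normal zebrafish development from 1 to 2 days post fertilization (dpf) was described with the 6 vehicle arrays of these stages, 3 taken at 24 hours post fertilization (hpf, 1 dpf) and 3 at 48 hpf (2 dpf), out of 28 arrays in the series. They were chosen by their titles, as the vehicle samples of replicates 1 to 3 at each stage, and each 2 dpf array was paired with the 1 dpf array of the same replicate number. The series followed whole zebrafish (Danio rerio) embryos of the wild-type strain DZ kept either in 0.1% dimethylsulfoxide (DMSO), the vehicle, or in 1 µM 17β-estradiol (E2) with the same DMSO, from about 3 hpf until they were collected on 1 of the first 4 days. Each sample was RNA of a pool of 30 whole embryos on 1 one-colour oligonucleotide array, replicates came from different spawnings of different breeding pairs, and the 2 later stages had 4 pools per treatment instead of 3. All 6 pools of the comparison had been in DMSO since about 3 hpf, so an embryo that was never in DMSO was not part of it. A pool of whole embryos has no single cell type, and a fall of a signal can come from fewer cells of a type or from less RNA per cell, which cannot be told apart here.

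The day between these stages takes the embryo from the end of segmentation to hatching stages. At 1 dpf the last somites are being cut from the presomitic mesoderm of the tail bud, where an oscillating clock of Hes-type repressors and Notch ligands sets the rhythm and Mesp and Ripply factors place the borders, and the heart has begun to beat. Over the next day fast and slow muscle fibres assemble their contractile apparatus, lens fibre cells fill with crystallins, neurons extend axons and form synapses, melanophores darken, fin folds grow out and the first cartilage condenses, while photoreceptors, the liver and the exocrine pancreas mature later.

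The arrays gave signals well above background for 67.8 to 73.4% of spots on the 6 arrays, with no saturated spot, and the number of arrays limits the precision. Rank correlations over probes were 0.966 to 0.981 within a stage and 0.928 to 0.966 between stages, and each of the 6 arrays was closest to another array of its own stage. Replicate 1 stood apart from replicates 2 and 3 at both stages: among the 2084 genes that rose, its 1 dpf array had the lowest signal of the 3 in 1289 (61.9%) and its 2 dpf array in 1406 (67.5%), and among genes that fell its 1 dpf array had the highest in 1314 of 2784 and its 2 dpf array in 1799. The E2 arrays of replicate 1 were lowest for 1194 (57.3%) of the genes that rose at 1 dpf and for 1343 of 2081 (64.5%) at 2 dpf. Among genes that fell, the E2 array of replicate 1 was highest in 1474 of 2784 at 2 dpf, but at 1 dpf in 1055 of 2785 against 1080 for replicate 2, so it did not stand apart there. Why replicate 1 stood apart was not tested. Within a pair both arrays lay on 1 slide, so slide and replicate number cannot be told apart, and every pair difference was taken within 1 slide.

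Of 43603 probes, 6369 (14.6%) were higher and 7863 (18%) lower at 2 dpf at an adjusted p under 0.05 (limma with the replicate number as a block, Benjamini-Hochberg over all probes), and 18189 had an unadjusted p under 0.05. In this fit rises were fewer but larger than falls: a change of at least 1 on the log2 scale was seen for 4130 rises and 2767 falls, at least 2 for 1711 and 500, and at least 4 for 239 and 39. With no replicate block the counts were nearly equal, 4754 rises and 4720 falls, so rises were not fewer there. By 1 probe per gene, 2084 of 10536 named genes (19.8%) rose and 2785 (26.4%) fell, with a median change of -0.13 over all of them, and 10048 were well above background on at least 1 of the 6 arrays. The shares of 19.8 and 26.4% are the background for the counts of each list below. The 3 arrays of 1 stage lay entirely above or below the 3 of the other in 5137 named genes (48.8%), the background for each statement below that stages did not overlap. Signals are given below as normalized log2 signal in the order of replicates 1, 2 and 3. Changes are 2 dpf minus 1 dpf on the log2 scale ± limma's standard error (SE), and p-values are limma's, adjusted over all probes. Each SE of a DMSO change rests on a spread estimated over the 14 DMSO arrays of all 4 stages. It is not the scatter of the 3 pairs alone. Where a probe was not well above background on any array of 1 stage, the change is given only as a bound ("at least"), set from the lowest signal well above background on each array, and the probe is called at background there.

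The strongest rises were in lens, muscle and skeletal matrix genes. The γM-crystallin crygm2d18 had the largest, with 0.48, 7.51 and 6.27 at 1 dpf and 14.30, 16.08 and 15.76 at 2 dpf, a rise of 10.63 ± 1.15 (adjusted p = 0.000143, with 2 of the 3 earlier arrays well above background). Replicate 1 had by far the lowest signal at 1 dpf, and the stages did not overlap in spite of that spread. The other crystallins among the 12 largest rises were crygm2d13, which rose by 8.45 ± 0.67 (adjusted p = 2.7e-05, with 2 of the 3 earlier arrays well above background), and crygmxl2, by 7.87 ± 0.91 (adjusted p = 0.000217). Lengsin (lgsn), a lens protein of the glutamine synthetase family, was at background on every 1 dpf array and at 6.67, 9.54 and 8.18 at 2 dpf, at least 37.9-fold higher (adjusted p = 7.73e-06). The lens gave 4 of the 12. Muscle gave 3 more: tnni2b.2, a fast skeletal troponin I, rose by 8.87 ± 0.86 (adjusted p = 7.99e-05, with 2 of the 3 earlier arrays well above background), atp2a1l, named for the calcium pump of the sarcoplasmic reticulum, by 7.48 ± 0.18 (adjusted p = 3.11e-07), and ampd1, the AMP deaminase of muscle, by 7.57 ± 0.49 (adjusted p = 9.58e-06). The values of atp2a1l were 4.57, 5.90 and 5.63 at 1 dpf and 11.94, 13.23 and 13.36 at 2 dpf in 3 nearly equal steps, and its adjusted p was the smallest of all probes. Fin fold and skeletal matrix filled most of the rest. The actinodins and2 and and3, proteins of the fibrils that stiffen the fin fold, rose by 7.53 ± 0.58 (adjusted p = 2.28e-05, with 2 of the 3 earlier arrays well above background) and 7.52 ± 0.61 (adjusted p = 3.16e-05). The collagen X gene col10a1a (6.34, 9.29 and 8.58 at 2 dpf) and the matrilin gene matn3a (6.46, 8.54 and 9.18) were at background on all 1 dpf arrays and at least 36.3-fold (adjusted p = 9.36e-06) and 36-fold higher (adjusted p = 4.49e-05) at 2 dpf. The remaining one, zgc:136930, carries no descriptive name in the files and rose by 9.09 ± 0.59 (adjusted p = 1.05e-05).

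**Figure D1:**
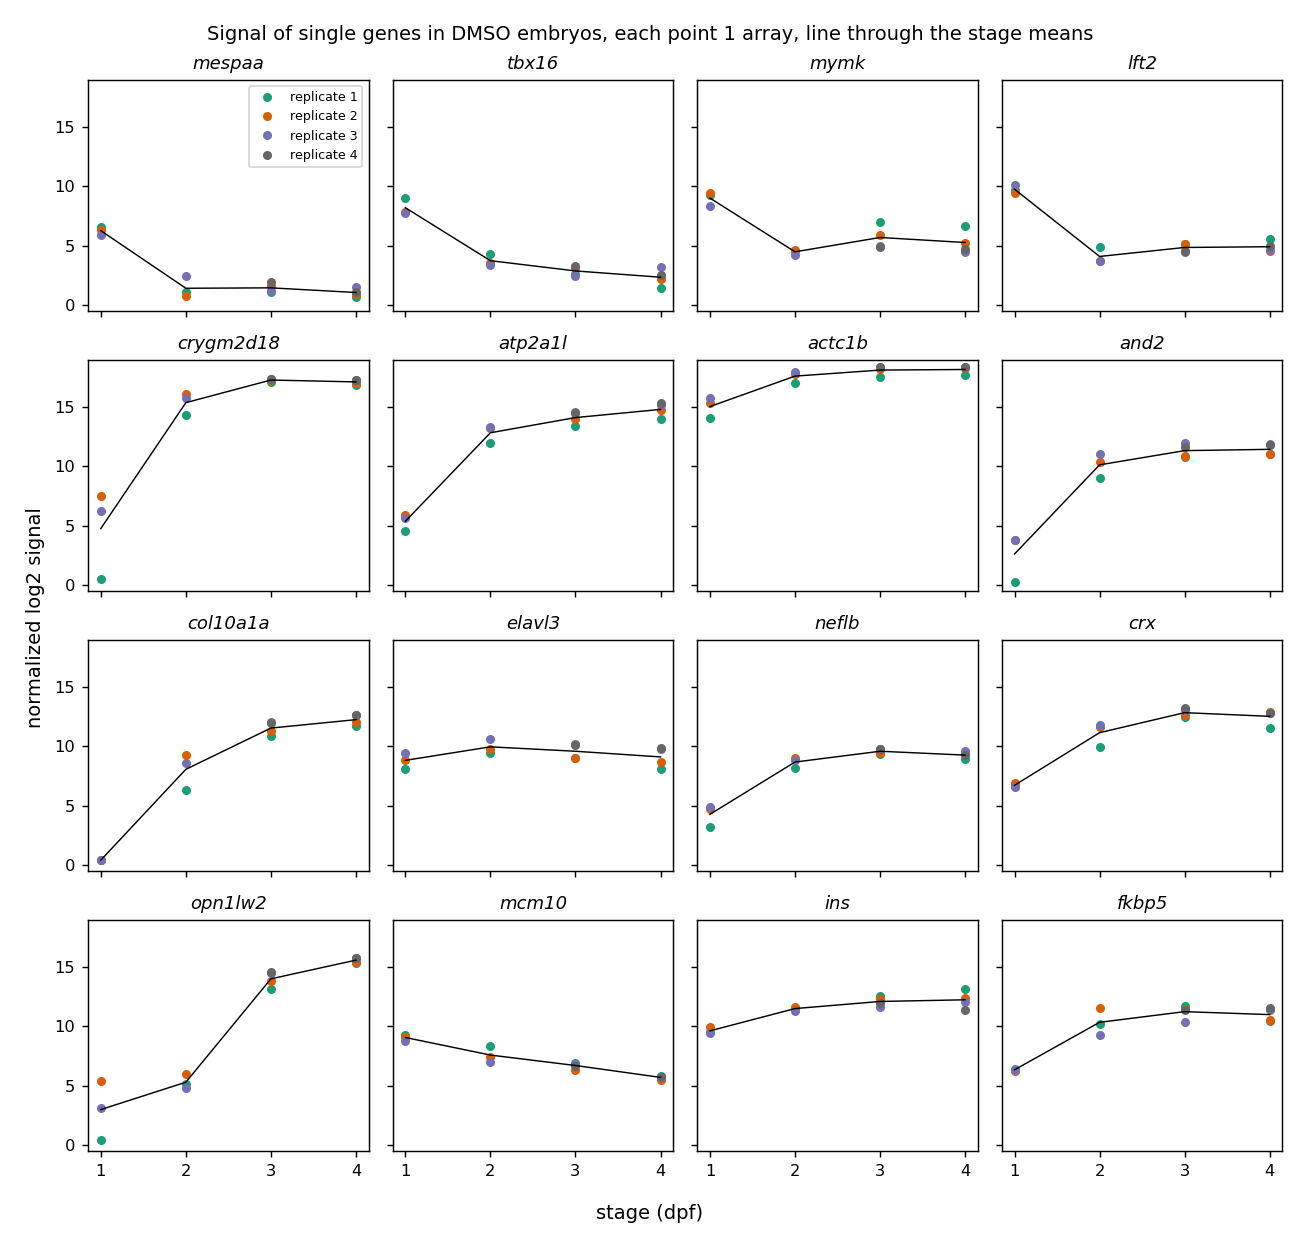
Normalized log2 signal (y axis) of 16 genes on each DMSO array at 1, 2, 3 and 4 dpf (x axis), coloured by replicate number, with a line through the stage means. The 2 dpf points lie clear of the 1 dpf points for 14 of the 16, elavl3 and opn1lw2 being the exceptions, and opn1lw2 makes its main rise only after 2 dpf.

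Genes of the segmenting tail, of Nodal signalling and of the yolk were among the 12 largest falls. The gene cyp11a1.1, the side-chain cleavage enzyme that starts steroid synthesis, fell most, from 11.43, 8.73 and 9.68 to 4.11, 3.39 and 3.44, by 6.30 ± 0.48 (adjusted p = 2.26e-05); the array of replicate 1 was the highest at both stages, and the stages stood far apart. The gene lft2, a secreted Nodal inhibitor, had 9.73, 9.47 and 10.08 at 1 dpf and 4.85, 3.67 and 3.73 at 2 dpf and fell by 5.68 ± 0.29 (adjusted p = 4.83e-06). The gene foxh1, the DNA-binding partner of Nodal's Smads, was at 6.08, 4.81 and 4.33 at 1 dpf and at background on all 2 dpf arrays, at least 7.26-fold lower (adjusted p = 3.16e-05). None of the 3 overlapped between stages. The gene mxtx1, a homeobox gene of the yolk syncytial layer, was at least 12.9-fold lower (adjusted p = 5.11e-05) and bhlha15, a regulator of secretory cells, at least 7.23-fold (adjusted p = 2.87e-06). The gene mymk, which encodes the myoblast fusion protein myomaker, had 9.23, 9.44 and 8.36 at 1 dpf and 4.58, 4.62 and 4.22 at 2 dpf and fell by 4.54 ± 0.36 (adjusted p = 2.55e-05); its other probe changed by -2.25. The gene uox (urate oxidase) fell by 4.51 ± 0.49 (adjusted p = 0.00015) and went up again by 4.98, adjusted p = 0.000216, from 2 to 3 dpf. The other 5 were tail bud and presomitic mesoderm genes: mespaa, cdx4, tbx6, tbx16 and ripply2.

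In the segmentation clock and paraxial mesoderm list, of 27 measured, 17 fell and 2 rose, and the median change was -1.59 (range -4.86 to 1.21) against -0.13 over all genes. The gene mespaa, which marks the next somite border, had 6.59, 6.31 and 5.88 at 1 dpf and 1.05, 0.71 and 2.43 at 2 dpf. Its later signal was at background on all 3 arrays, so it was at least 15.6-fold lower (adjusted p = 3.51e-05), and the stages did not overlap. The clock repressor her7 had 8.62, 7.30 and 6.94 at 1 dpf and 3.71, 4.86 and 3.72 at 2 dpf and fell by 3.52 ± 0.39 (adjusted p = 0.000172), and its partner her1, at background at 2 dpf, was at least 3.97-fold lower (adjusted p = 8.36e-06). The T-box genes of paraxial mesoderm tbx6 (9.02, 7.44 and 7.41 at 1 dpf and 3.61, 3.49 and 3.18 at 2 dpf) and tbx16 (9.02, 7.86 and 7.71 at 1 dpf and 4.28, 3.51 and 3.40 at 2 dpf) fell by 4.53 ± 0.50 (adjusted p = 0.000162) and 4.47 ± 0.50 (adjusted p = 0.000179). The gene ripply2, which ends Mesp activity in the formed somite, fell by 4.28 ± 0.26 (adjusted p = 8.31e-06), and the posterior gene cdx4 by 4.59 ± 0.35 (adjusted p = 2.14e-05). In each of these genes the 3 arrays at 2 dpf were below the 3 at 1 dpf, and replicate 1 had the highest 1 dpf signal. The 2 that rose are not confined to the tail: evx1, also a gene of spinal interneurons, had 8.84, 9.02 and 9.27 at 1 dpf and 10.02, 10.19 and 10.55 at 2 dpf and rose by 1.21 ± 0.15 (adjusted p = 0.000383), and the Notch ligand dld, also of neural progenitors, rose by 0.49 ± 0.14 (adjusted p = 0.0226), a call that was lost when each array was scaled to its 75th percentile instead (0.36, adjusted p = 0.128). The gene tbxta, the Brachyury gene of tail bud and notochord, did not pass the test at -1.15 ± 0.67, adjusted p = 0.231. Yet it fell in each pair, from 9.54, 9.295 and 9.109 to 7.852, 8.216 and 8.423, and the stages did not overlap. Its SE takes in the later stages, where the 4 dpf signals were 3.449, 5.307, 7.108 and 7.386. The median of the list was -1.79, -1.08 and -0.94 in pairs 1, 2 and 3, and -0.97 without replicate 1, with the same counts of 17 and 2.

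Secreted signals went both ways. Of 79 ligands and secreted inhibitors, 18 rose and 24 fell (22.78 and 30.38%, against 19.8 and 26.4% of all named genes). Beside lft2, lft1 fell by 3.70 ± 0.28 (adjusted p = 2.16e-05, with 2 of the 3 later arrays well above background, signals 7.40, 6.67 and 5.94 at 1 dpf and 3.89, 3.06 and 1.96 at 2 dpf), and gdf3, the Vg1 homologue that pairs with Nodal and is supplied by the mother, fell by 3.40 ± 0.40 (adjusted p = 0.000225, with 1 of the 3 later arrays well above background). The Nodal ligand genes, named after their values were seen, fell from low signals: ndr1 by 1.96 ± 0.47 (adjusted p = 0.0113, with 1 of the 3 later arrays well above background) and ndr2 by 2.17 ± 0.42 (adjusted p = 0.00385, with 2 of the 3 later arrays well above background), while the left-side ligand spaw was well above background on 1 array at 1 dpf and on none at 2 dpf. These members of 1 pathway were picked for their size. Among the rises, dkk3b, a Dickkopf-family secreted protein, rose by 2.56 ± 0.41 (adjusted p = 0.00133, with 1 of the 3 earlier arrays well above background), and mstnb, the muscle growth inhibitor myostatin, was at least 2.72-fold higher (adjusted p = 0.0013), although another of its probes gave a change of -0.36. Among ligands of the bone morphogenetic protein pathway, bmp2b (0.04 ± 0.18, adjusted p = 0.908) and bmp4 (0.19 ± 0.13, adjusted p = 0.295) did not pass the test.

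**Figure D2:**
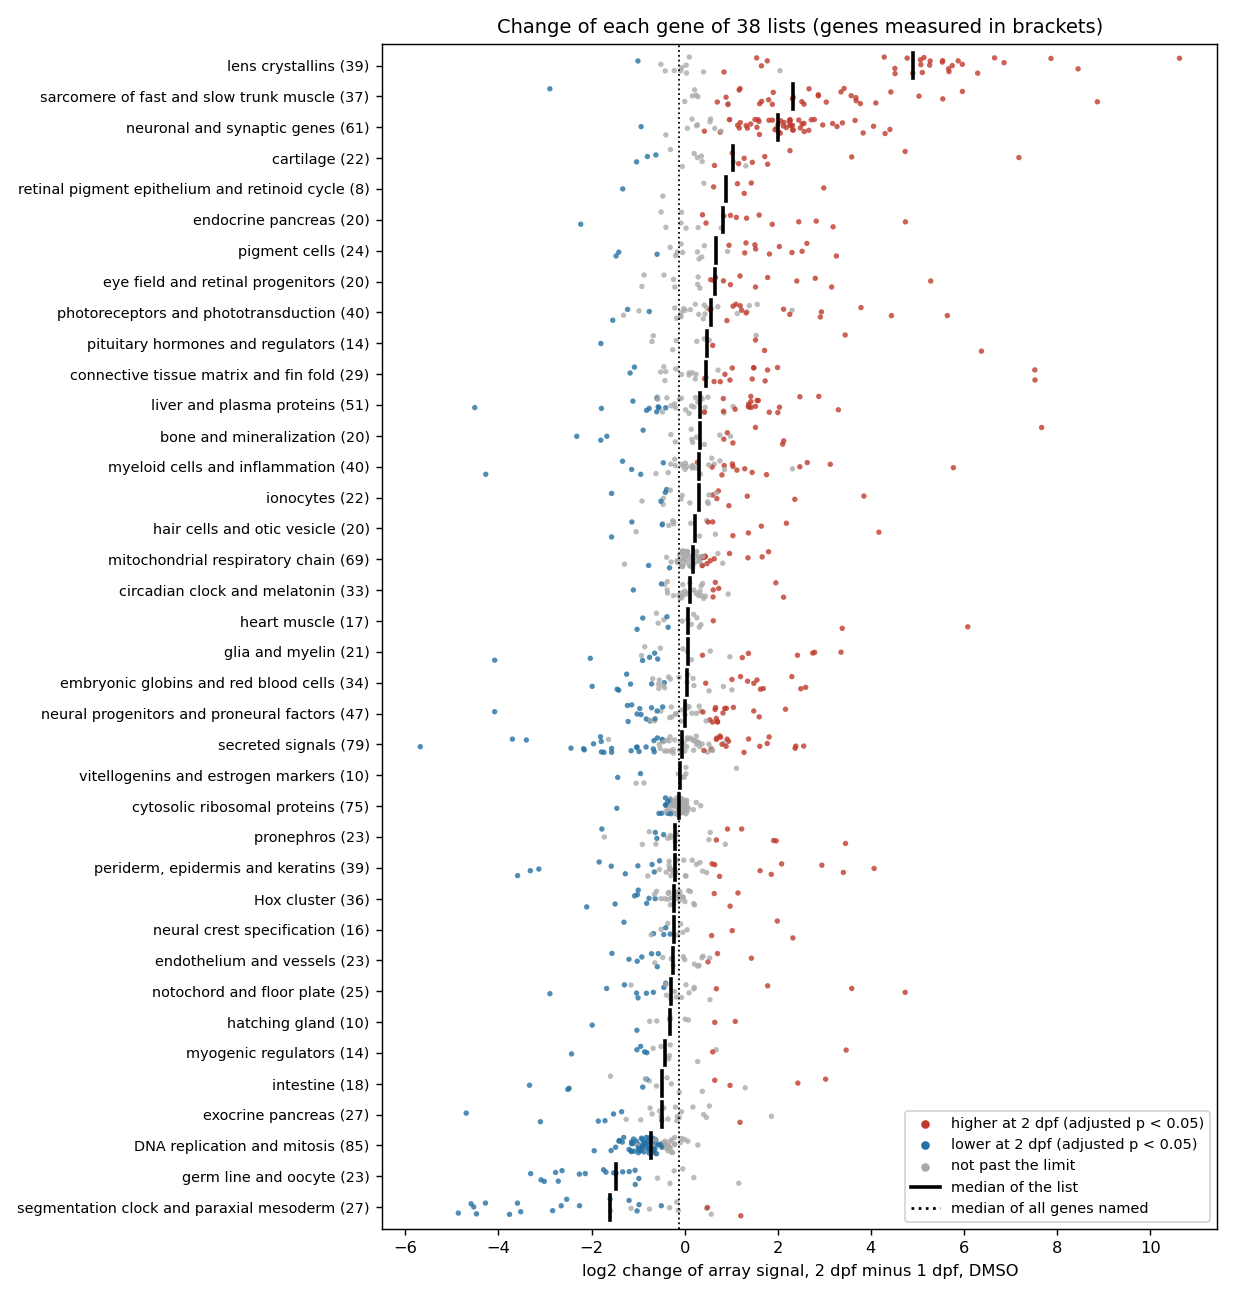
Change from 1 to 2 dpf in DMSO embryos (x axis, log2) of every measured gene of the 38 lists (y axis, ordered by median), 1 point per gene, red where it rose and blue where it fell at an adjusted p under 0.05, with the list's median as a bar and the median of all genes named as a dotted line. Lens crystallins, sarcomere and neuronal genes lie to the right, and the segmentation, germ line and DNA replication lists to the left.

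Sarcomere genes of trunk muscle had the second highest median of the lists. Of 37, 30 rose and 1 fell, with a median of 2.33, a range of -2.90 to 8.87 and 27 rises of at least 1. The parvalbumin pvalb1, a calcium buffer of fast fibres, had 8.99, 13.24 and 12.19 at 1 dpf and 17.39, 17.47 and 17.47 at 2 dpf and rose by 5.97 ± 0.81 (adjusted p = 0.000551), and the fast troponin T tnnt3b had 9.10, 13.47 and 13.46 at 1 dpf and 17.00, 17.81 and 17.85 at 2 dpf and rose by 5.55 ± 0.78 (adjusted p = 0.000661). Both were lowest on the 1 dpf array of replicate 1 and reached nearly the same level on all 3 arrays at 2 dpf. The muscle actins actc1b (14.05, 15.34 and 15.77 at 1 dpf and 17.05, 17.84 and 17.96 at 2 dpf) and acta1b (11.71, 13.44 and 14.56 at 1 dpf and 15.36, 16.15 and 16.82 at 2 dpf) rose by 2.57 ± 0.18 (adjusted p = 1.52e-05) and 2.87 ± 0.26 (adjusted p = 5.37e-05), and the fast regulatory light chain mylpfa by 1.90 ± 0.30 (adjusted p = 0.0013). The single fall was tnni2b.1, a fast troponin I next in name to the steeply rising tnni2b.2. It had 15.63, 16.12 and 15.74 at 1 dpf and 14.33, 12.06 and 12.42 at 2 dpf and fell by 2.90 ± 0.42 (adjusted p = 0.000797), so these troponin I genes moved in opposite directions in each of the 3 pairs. Of genes of slow fibres, the slow myosin smyhc1 (0.21 ± 0.17, adjusted p = 0.375) and the light chain myl10 (0.00 ± 0.13, adjusted p = 0.994) did not pass the test. The median of the list was 2.94 in pair 1 and 2.15 and 2.13 in pairs 2 and 3.

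Of 14 myogenic regulators, the factors that start and guide the muscle program, 5 fell and 2 rose. Myogenin (myog), which drives differentiation, had 11.88, 11.42 and 11.28 at 1 dpf and 8.67, 9.57 and 9.04 at 2 dpf and fell by 2.43 ± 0.25 (adjusted p = 0.000116). The gene myf5, an early determination factor, fell by 0.81 ± 0.21 (adjusted p = 0.0169), and prdm1a, needed for slow fibres and also in the hatching gland list, fell by 1.02 ± 0.12 (adjusted p = 0.000222). All 3 had every 2 dpf array below every 1 dpf array. The muscle histone methyltransferase gene smyd1a rose by 3.47 ± 0.34 (adjusted p = 8.56e-05, signals 6.94, 8.98 and 9.28 at 1 dpf and 11.29, 11.89 and 12.43 at 2 dpf), whereas its paralogue smyd1b fell by 0.95 ± 0.24 (adjusted p = 0.0134) with overlapping stages. Of the other determination factors, myod1 (-0.34 ± 0.13, adjusted p = 0.0685) and myf6 (-0.51 ± 0.24, adjusted p = 0.149) did not pass the test.

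In the heart list 3 of 17 genes rose and 4 fell (17.65 and 23.53%, against 19.8 and 26.4% of all named genes). The gene nppa, the atrial natriuretic peptide made by working chamber muscle, was at background at 1 dpf (1.85, 2.3 and 2.67) and at 8.15, 8.33 and 8.59 at 2 dpf, at least 44.3-fold higher (adjusted p = 4.39e-06), and the ventricular myosin-like gene myh7l rose by 3.38 ± 0.33 (adjusted p = 8.18e-05). The cardiac factors nkx2.5 and gata5 fell by 1.02 ± 0.15 (adjusted p = 0.000883) and 0.90 ± 0.17 (adjusted p = 0.00319), and hand2 rose by 0.62 ± 0.16 (adjusted p = 0.017), but not past the limit under the 75th percentile scaling (0.51, adjusted p = 0.0527). Of contractile genes of the early heart, myl7 (0.07 ± 0.19, adjusted p = 0.832) and the atrial myosin myh6 (0.35 ± 0.27, adjusted p = 0.38) did not pass the test.

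Lens genes, mostly crystallins, the soluble proteins that fill fibre cells, with some membrane and cytoskeletal proteins of those cells, had the highest median of the 38 lists, 4.90. Of 39 measured, 28 rose and 1 fell, the changes ranged from -1 to 10.63, and the pairs gave medians of 4.66, 4.88 and 4.54. Many γM-crystallins are near-identical copies, so a probe can read its neighbours in the family and these rises are not independent. The α-crystallin cryaa, a chaperone coded by its own gene, had 4.37, 5.32 and 4.72 at 1 dpf and 9.20, 10.80 and 10.18 at 2 dpf and rose by 5.26 ± 0.20 (adjusted p = 1.62e-06). Its stages were far apart. The paralogues cryaba, at background on all 6 arrays, and cryabb (0.04 ± 0.25, adjusted p = 0.939), whose products also serve as general stress chaperones, did not pass the test. The 1 member that fell was crygs1, by 1 ± 0.25 (adjusted p = 0.014), with overlapping stages (6.33, 6.07 and 6.92 at 1 dpf and 5.18, 4.72 and 6.40 at 2 dpf).

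Several transcription factors listed for the eye field and retina rose. The tissue that gave these signals was not measured in pools of whole embryos. Of 20 eye field and retinal progenitor genes, 12 rose and 0 fell (2 fell without replicate 1). The gene atoh7, which the first retinal ganglion cells need, had 3.46, 4.13 and 3.59 at 1 dpf and 9.11, 8.85 and 9.07 at 2 dpf and rose by 5.29 ± 0.20 (adjusted p = 1.62e-06), and its downstream factor pou4f2 rose by 2.81 ± 0.22 (adjusted p = 2.34e-05, signals 5.36, 5.72 and 6.04 at 1 dpf and 7.64, 8.81 and 9.09 at 2 dpf). The bipolar cell factor vsx1 rose by 3.16 ± 0.22 (adjusted p = 1.41e-05). The eye field genes rx1 (-0.92 ± 0.36, adjusted p = 0.0852), rx2 (-0.44 ± 0.17, adjusted p = 0.0772), rx3 (-0.87 ± 0.34, adjusted p = 0.0826) and pax6a (0.33 ± 0.17, adjusted p = 0.181) did not pass the test. Of 40 photoreceptor genes, 14 rose and 3 fell, with a median of 0.56 and a range of -1.54 to 5.64, and 31 of the 40 were well above background on at least 1 of the 6 arrays. The others include 1 of the rises (opn1mw2) and 1 of the falls (guca1aa, a guanylate cyclase activator). The gene crx, the homeobox factor of photoreceptor precursors, had 6.63, 6.92 and 6.60 at 1 dpf and 9.97, 11.67 and 11.84 at 2 dpf and rose by 4.44 ± 0.33 (adjusted p = 2.03e-05), and the cone arrestin arr3a had 1.96, 3.85 and 1.77 at 1 dpf and 8.17, 8.40 and 7.93 at 2 dpf and rose by 5.64 ± 0.45 (adjusted p = 2.87e-05, with 1 of the 3 earlier arrays well above background). Opsins catch light and transducins pass its signal on. The red cone opsin opn1lw2 had 0.46, 5.41 and 3.09 at 1 dpf and 5.15, 5.97 and 4.77 at 2 dpf (2.31 ± 0.81, adjusted p = 0.0552) and passed under the 75th percentile scaling (2.46, adjusted p = 0.0266), with all 28 arrays in the fit and without 1 dpf replicate 2, the green opsin opn1mw1 changed by -1.31 ± 0.62, adjusted p = 0.142 near background, and the blue opsin opn1sw2 fell by 1.54 ± 0.33 (adjusted p = 0.00587). A further green opsin, opn1mw2, passed the test but was not well above background on any array of either stage, so no change is given for it. The rod and cone transducin alpha subunits gnat1 (0.58 ± 0.30, adjusted p = 0.18) and gnat2 (0.44 ± 0.31, adjusted p = 0.328) did not pass the test, while the rod gamma subunit gngt1 had 0.45, 5.09 and 4.66 at 1 dpf and 7.13, 7.36 and 7.08 at 2 dpf and rose by 3.79 ± 0.85 (adjusted p = 0.00809, with 2 of the 3 earlier arrays well above background). In the retinal pigment epithelium list 5 of 8 rose, among them the retinoid-binding protein rlbp1b by 2.99 ± 0.34 (adjusted p = 0.000204) and the isomerohydrolase rpe65a by 1.43 ± 0.20 (adjusted p = 0.000678), and rgra, a retinal G protein-coupled receptor, fell by 1.33 ± 0.31 (adjusted p = 0.00963).

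Of 61 neuronal and synaptic genes, 50 rose and 1 fell, the median was 2.01 (range -0.93 to 4.41), and the pair medians lay between 1.92 and 1.99. The neurofilament gene neflb had 3.22, 4.69 and 4.91 at 1 dpf and 8.21, 9.02 and 8.81 at 2 dpf and rose by 4.41 ± 0.25 (adjusted p = 6.17e-06). The gene slc6a1a, a transporter that takes up GABA, had 4.76, 6.14 and 5.98 at 1 dpf and 9.39, 10.31 and 10.10 at 2 dpf and rose by 4.31 ± 0.17 (adjusted p = 1.78e-06), and glra1, a glycine receptor subunit, rose by 4.06 ± 0.38 (adjusted p = 6.46e-05, with 1 of the 3 earlier arrays well above background). Every 2 dpf array lay above every 1 dpf array for all 3. The general neuronal RNA-binding genes rose less: elavl4 by 2.25 ± 0.24 (adjusted p = 0.000128), and elavl3 (8.14, 8.88 and 9.46 at 1 dpf and 9.44, 9.80 and 10.66 at 2 dpf) by 1.14 ± 0.16 (adjusted p = 0.00073) with overlapping stages but a rise in each pair. The single fall was camk2d1, a calmodulin-dependent kinase subunit, which fell by 0.93 ± 0.14 (adjusted p = 0.00102).

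Progenitor and patterning genes of the neural tube split. Of 47, 15 rose and 13 fell, and the median was 0.00783. The gene egr2b, which specifies rhombomeres of the hindbrain, had 9.96, 8.59 and 8.59 at 1 dpf and 5.91, 4.28 and 4.71 at 2 dpf and fell by 4.08 ± 0.30 (adjusted p = 2e-05). The progenitor genes sox3 and her8a fell by 0.74 ± 0.17 (adjusted p = 0.0084) and 1.23 ± 0.24 (adjusted p = 0.00422), whereas sox2 (-0.32 ± 0.15, adjusted p = 0.136) and neurog1 (0.35 ± 0.14, adjusted p = 0.0836) did not pass the test. Among factors of later neurons, neurod6b rose by 2.17 ± 0.32 (adjusted p = 0.000827) and neurod1 by 1.6 ± 0.16 (adjusted p = 8.5e-05), and the forebrain and midbrain gene otx2b by 1.49 ± 0.15 (adjusted p = 8.68e-05). In the glial list 7 of 21 rose and 6 fell. The glutamate transporter slc1a2b of radial glia had 9.26, 10.04 and 9.73 at 1 dpf and 12.65, 13.22 and 13.24 at 2 dpf and rose by 3.36 ± 0.20 (adjusted p = 6.99e-06), the fatty acid-binding protein fabp7a rose by 2.79 ± 0.24 (adjusted p = 4.55e-05), and the myelin protein zero gene mpz fell by 2.03 ± 0.23 (adjusted p = 0.000178, signals 7.59, 7.17 and 7.32 at 1 dpf and 5.97, 5.01 and 5.02 at 2 dpf). Of the defining glial genes, gfap (0.14 ± 0.16, adjusted p = 0.54), sox10 (-0.04 ± 0.15, adjusted p = 0.894) and plp1a (0.06 ± 0.19, adjusted p = 0.858) did not pass the test, and plp1b rose by 2.42 ± 0.51 (adjusted p = 0.00567, with 2 of the 3 earlier arrays well above background). In the ear list 7 of 20 rose and 3 fell: tectb, a protein of the membrane over the hair cells, had 4.13, 3.54 and 4.13 at 1 dpf and 7.55, 8.22 and 8.54 at 2 dpf and rose by 4.17 ± 0.25 (adjusted p = 7.21e-06), and otofa, the calcium sensor of hair cell synapses, rose by 2.19 ± 0.15 (adjusted p = 1.47e-05). The early placode gene foxi1 fell by 1.57 ± 0.16 (adjusted p = 9.28e-05), and otop1, needed for otolith seeding, by 1.13 ± 0.34 (adjusted p = 0.032) with overlapping stages.

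In the connective tissue list 14 of 29 rose and 2 fell. The actinodin and2 had 0.23, 3.76 and 3.81 at 1 dpf and 8.98, 10.34 and 11.07 at 2 dpf, lowest on the 1 dpf array of replicate 1, and the proteoglycan lumican (lum) had 8.56, 9.79 and 9.32 at 1 dpf and 10.69, 11.65 and 11.31 at 2 dpf and rose by 2.00 ± 0.13 (adjusted p = 8.87e-06). The falls were the fibulin fbln1, by 1.17 ± 0.16 (adjusted p = 0.000578) with overlapping stages, and the collagen chaperone serpinh1b, by 1.08 ± 0.26 (adjusted p = 0.0108). Of 22 cartilage genes, 11 rose and 3 fell, with a median of 1.04. Besides matn3a, the leucine-rich matrix protein genes chad (0.48, 4.60 and 5.16 at 1 dpf and 7.20, 8.43 and 8.84 at 2 dpf) and epyc (6.40, 8.48 and 9.58 at 1 dpf and 10.73, 11.99 and 12.51 at 2 dpf) rose by 4.74 ± 0.71 (adjusted p = 0.000907, with 2 of the 3 earlier arrays well above background) and 3.59 ± 0.44 (adjusted p = 0.000302); both are also in the notochord list. The cartilage regulator sox9a changed by 0.38 ± 0.16, adjusted p = 0.0973. The gene matn1, which marks differentiated cartilage, was well above background on 1 of the 6 arrays (0.42, 0.38 and 0.54 at 1 dpf and 0.34, 2.71 and 1.44 at 2 dpf) and reached its level later, with a 2 to 3 dpf change of 9.76 ± 0.55 (adjusted p = 1.82e-05). The gene ihhb, a hedgehog ligand, fell by 1.03 ± 0.15 (adjusted p = 0.000803) and the chondroitin sulfotransferase chst11 by 0.80 ± 0.13 (adjusted p = 0.00138). In the bone list 7 of 20 rose and 4 fell. Its largest rise was that of col10a1a, at least 36.3-fold (adjusted p = 9.36e-06). The collagen I genes col1a1a (11.20, 12.42 and 12.83 at 1 dpf and 13.70, 14.35 and 14.79 at 2 dpf) and col1a1b rose by 2.13 ± 0.30 (adjusted p = 0.000669) and 2.11 ± 0.28 (adjusted p = 0.000469), and the osteoblast factor sp7 fell by 0.89 ± 0.22 (adjusted p = 0.012). The phosphatase acp5a and the calcification inhibitor mgp fell by 2.32 ± 0.32 (adjusted p = 0.000626) and 1.80 ± 0.30 (adjusted p = 0.00174). Of 25 notochord and floor plate genes, 9 fell and 4 rose: the notochord identity gene noto had 8.81, 8.35 and 8.36 at 1 dpf and 5.88, 5.51 and 5.45 at 2 dpf and fell by 2.89 ± 0.37 (adjusted p = 0.000399), the laminin gene lama1 fell by 1.68 ± 0.16 (adjusted p = 7.7e-05), matn4 rose by 1.78 ± 0.30 (adjusted p = 0.0019), and shha changed by 0.20 ± 0.16, adjusted p = 0.408.

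Of 24 pigment cell genes, 11 rose and 3 fell. The melanin enzymes tyrp1b and dct (10.07, 11.30 and 11.37 at 1 dpf and 13.59, 13.50 and 13.52 at 2 dpf) rose by 3.26 ± 0.46 (adjusted p = 0.000654) and 2.63 ± 0.29 (adjusted p = 0.000159), and pmela, the fibril protein of the melanosome, by 2.52 ± 0.31 (adjusted p = 0.000288, signals 10.18, 11.70 and 11.34 at 1 dpf and 13.53, 13.81 and 13.44 at 2 dpf). For each of these the 1 dpf array of replicate 1 was lowest and the stages did not overlap. The melanophore factor mitfa changed by -0.04 ± 0.27, adjusted p = 0.94, and tyr, the first enzyme of melanin synthesis, was at background on 5 of the 6 arrays. The pteridine gene gch2 and the iridophore gene pnp4a rose by 1.51 ± 0.49 (adjusted p = 0.0434) and 1.52 ± 0.39 (adjusted p = 0.0155), the latter on 1 probe only, since its other probe changed by -0.0324, and gch2 not under the 75th percentile scaling (1.34, adjusted p = 0.0523). Among the falls, gart, a purine synthesis enzyme, fell by 1.41 ± 0.17 (adjusted p = 0.000234, signals 14.77, 14.50 and 14.80 at 1 dpf and 13.80, 12.83 and 13.20 at 2 dpf), and tfec, a factor of iridophore precursors, by 1.47 ± 0.27 (adjusted p = 0.00285). The list median of 0.67 was 0.25 without replicate 1. Of 16 crest specification genes, 4 rose and 5 fell (25 and 31.25%, against 19.8 and 26.4% of all named genes). The count that fell was 3 without replicate 1 and 8 under 75th percentile scaling. The AP-2 factor genes tfap2b and tfap2e rose by 2.33 ± 0.14 (adjusted p = 7.05e-06) and 1.99 ± 0.20 (adjusted p = 0.000108), sox9b by 1.02 ± 0.21 (adjusted p = 0.00535), snai1b fell by 1.3 ± 0.19 (adjusted p = 0.000839) and msx1b by 0.67 ± 0.16 (adjusted p = 0.0101), and foxd3 missed the limit (-0.50 ± 0.17, adjusted p = 0.0505).

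Blood genes went both ways. Of 34, 11 rose and 7 fell (32.35 and 20.59%, against 19.8 and 26.4% of all named genes), and the count that fell was 12 without replicate 1 and 13 without its 1 dpf array alone. The embryonic β-globin hbbe2 had 12.90, 13.33 and 13.61 at 1 dpf and 15.42, 16.12 and 15.79 at 2 dpf and rose by 2.5 ± 0.31 (adjusted p = 0.000338), the α-globin hbae3 had 16.11, 16.91 and 17.39 at 1 dpf and 18.38, 18.42 and 18.49 at 2 dpf and rose by 1.63 ± 0.30 (adjusted p = 0.00267), and hbbe3 changed by 0.07 ± 0.64, adjusted p = 0.961; globins are close copies, and a probe can read more than 1 of them. The anion exchanger slc4a1a of the red cell membrane rose by 2.60 ± 0.50 (adjusted p = 0.00363), and alas2, the first enzyme of erythroid heme synthesis, by 1.55 ± 0.25 (adjusted p = 0.00135). A later enzyme of heme synthesis, cpox, went the other way, with 7.68, 8.54 and 9.5 at 1 dpf and 6.92, 6.64 and 7.82 at 2 dpf, and fell by 1.45 ± 0.25 (adjusted p = 0.00202), in each pair but with overlapping stages. The erythroid factors klf17, also in the hatching gland list, and gata1a fell by 1.99 ± 0.34 (adjusted p = 0.00191) and 0.44 ± 0.14 (adjusted p = 0.0368). Of 23 vessel genes, 7 fell and 3 rose (30.43 and 13.04%, against 26.4 and 19.8% of all named genes). The gene etsrp, the master factor of endothelial and blood precursors, had 10.14, 9.39 and 9.57 at 1 dpf and 8.27, 7.99 and 8.16 at 2 dpf and fell by 1.56 ± 0.12 (adjusted p = 2.56e-05), and the receptor kdr and the junction gene cldn5a fell by 1.2 ± 0.18 (adjusted p = 0.000889) and 1.02 ± 0.14 (adjusted p = 0.000674). The gene plvapb, of fenestrated endothelium, rose by 1.43 ± 0.21 (adjusted p = 0.000903) and the Notch ligand dll4 by 0.71 ± 0.13 (adjusted p = 0.0033), while cdh5 (0.00 ± 0.21, adjusted p = 0.997) and kdrl (0.21 ± 0.40, adjusted p = 0.753, from low 1 dpf signals of 3.89, 3.30 and 2.80) did not pass the test. Of 40 myeloid genes, 14 rose and 5 fell (3 without replicate 1). The mast cell carboxypeptidase cpa5 had 0.64, 4.60 and 1.06 at 1 dpf and 7.74, 7.70 and 8.16 at 2 dpf and rose by 5.77 ± 0.76 (adjusted p = 0.000468, with 1 of the 3 earlier arrays well above background). Its DMSO signals were 7.75, 8.343, 8.865 and 8.795 at 3 dpf and 14.56, 14.98, 14.36 and 13.92 at 4 dpf. The cells that gave the cpa5 signal were not measured. The gene mpx, the neutrophil peroxidase, had 4.68, 6.04 and 5.23 at 1 dpf and 8.48, 8.08 and 8.78 at 2 dpf and rose by 3.13 ± 0.30 (adjusted p = 7.07e-05), while 1 of its other probes changed by -0.002185 and another rose by 2.29. The macrophage gene mpeg1.1 rose by 1.45 ± 0.12 (adjusted p = 3.73e-05), and the early myeloid factor spi1b fell by 0.46 ± 0.14 (adjusted p = 0.0378) with overlapping stages. The gene ctss2.1, a cathepsin S, had 9.78, 10.09 and 10.66 at 1 dpf and 6.79, 4.77 and 6.15 at 2 dpf and fell by 4.27 ± 0.64 (adjusted p = 0.000918).

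Keratins of the skin list moved in both directions. Of 39 skin genes, 9 rose and 10 fell (23.08 and 25.64%, against 19.8 and 26.4% of all named genes). The gene krt17 had 16.13, 14.88 and 15.03 at 1 dpf and 12.01, 11.52 and 11.75 at 2 dpf and fell by 3.59 ± 0.19 (adjusted p = 5.29e-06), krt92 had 16.85, 16.05 and 15.97 at 1 dpf and 13.35, 13.02 and 13.10 at 2 dpf and fell by 3.13 ± 0.25 (adjusted p = 2.56e-05), and krt99 fell by 3.31 ± 0.29 (adjusted p = 4.24e-05). In the opposite direction krt91 had 10.86, 11.44 and 11.46 at 1 dpf and 14.84, 15.65 and 15.48 at 2 dpf and rose by 4.07 ± 0.21 (adjusted p = 4.83e-06), and krt15 rose by 3.41 ± 0.29 (adjusted p = 3.73e-05). The stages of these 5 did not overlap. The gene krt4, a keratin of the surface layer with the highest signals of the list, changed by 0.03 ± 0.10, adjusted p = 0.868, krt5 fell by 0.70 ± 0.21 (adjusted p = 0.0293), the basal layer factor tp63 changed by -0.33 ± 0.12, adjusted p = 0.0684, and cdh1, E-cadherin, fell by 0.54 ± 0.14 (adjusted p = 0.0167). Of 22 ionocyte genes, 7 rose and 4 fell (31.82 and 18.18%, against 19.8 and 26.4% of all named genes), with 2 falls without replicate 1. The gene atp1a1a.5 was at background at 1 dpf and at 4.75, 4.60 and 4.73 at 2 dpf, at least 3.5-fold higher (adjusted p = 0.000238), whereas its sodium pump paralogue atp1a1a.1 fell by 0.51 ± 0.11 (adjusted p = 0.00618) and the ionocyte factor foxi3b changed by -0.08 ± 0.16, adjusted p = 0.77. Hatching gland genes numbered 10, of which 2 rose and 3 fell (20 and 30%, against 19.8 and 26.4% of all named genes). Without replicate 1 these counts were 1 and 2. The hatching enzymes he1.1 (15.15, 16.01 and 15.62 at 1 dpf and 15.08, 14.67 and 14.78 at 2 dpf) and he1.2 did not pass the test (-0.75 ± 0.84, adjusted p = 0.556 and -0.60 ± 0.57, adjusted p = 0.48). Every 2 dpf array of he1.1 still lay below every 1 dpf array, whereas the stages of he1.2 overlapped. Their SE takes in the later stages, where the signals of both were far lower. From 2 to 3 dpf they fell by 5.88 ± 0.81 (adjusted p = 0.00132) and 6.02 ± 0.55 (adjusted p = 0.000179). Of 23 pronephros genes, 6 rose and 4 fell (2 without replicate 1). The gene lhx1a, a LIM factor of the kidney that is also strong in neurons, had 9.06, 9.82 and 9.91 at 1 dpf and 12.49, 13.44 and 13.22 at 2 dpf and rose by 3.46 ± 0.12 (adjusted p = 2.14e-06), the sulfate carrier slc26a1 fell by 1.78 ± 0.16 (adjusted p = 5.34e-05), and nphs1 changed by -0.18 ± 0.21, adjusted p = 0.567.

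Of 20 endocrine genes, 12 rose and 1 fell. Insulin (ins) had 9.51, 9.94 and 9.44 at 1 dpf and 11.56, 11.64 and 11.33 at 2 dpf and rose by 1.88 ± 0.27 (adjusted p = 0.000689), glucagon gcga had 6.08, 5.33 and 5.69 at 1 dpf and 8.78, 8.92 and 8.96 at 2 dpf and rose by 3.19 ± 0.24 (adjusted p = 2e-05), and somatostatin sst1.1 rose by 2.83 ± 0.32 (adjusted p = 0.000181). The second insulin gene, insb, went the other way, with 9.34, 8.34 and 8.41 at 1 dpf and 7.18, 6.1 and 6.11 at 2 dpf and fell by 2.23 ± 0.22 (adjusted p = 7.99e-05). The stages of all 4 were separate. Peptide YY (pyya) rose by 4.74 ± 0.42 (adjusted p = 5.15e-05), and pdx1, the pancreatic homeobox factor, changed by -0.07 ± 0.14, adjusted p = 0.792. Of 27 exocrine genes, 7 fell and 1 rose (25.93 and 3.70%, against 26.4 and 19.8% of all named genes) with a median of -0.49. The list rose later, to a median of 7.42 above 1 dpf at 4 dpf. The pair medians of the list were -0.27, -1.24 and -0.28 in DMSO and -0.11, -0.24 and -0.12 with E2. Trypsin prss1 (-0.16 ± 0.26, adjusted p = 0.713) and chymotrypsin ctrb.1 (0.41 ± 1.17, adjusted p = 0.847) did not pass the test, amy2a fell by 1.35 ± 0.27 (adjusted p = 0.00415) and prss60.1 by 3.1 ± 0.62 (adjusted p = 0.00465), and ptf1a, the factor that specifies acinar cells, rose by 1.19 ± 0.24 (adjusted p = 0.00449). The signals of ctrb.1 were 0.69, 7.22 and 0.62 at 1 dpf and 2.54, 4.06 and 3.16 at 2 dpf. It thus rose in pairs 1 and 3 and fell in pair 2, where the 1 dpf array was far above the others. Under the 75th percentile scaling, 3 exocrine genes rose and 6 fell. Of 51 liver genes, 19 rose and 10 fell (6 without replicate 1). Apolipoprotein apoea had 9.10, 9.61 and 9.64 at 1 dpf and 11.67, 12.45 and 11.65 at 2 dpf and rose by 2.48 ± 0.29 (adjusted p = 0.000209), hepcidin hamp had 2.12, 3.59 and 3.56 at 1 dpf and 5.54, 6.37 and 6.00 at 2 dpf and rose by 2.88 ± 0.28 (adjusted p = 8.23e-05, with 2 of the 3 earlier arrays well above background), and the clotting factor f9a fell by 1.79 ± 0.39 (adjusted p = 0.0074, with 2 of the 3 later arrays well above background). The gene fabp10a, the defining marker of hepatocytes, had 4.14, 5.12 and 3.77 at 1 dpf and 4.37, 6.56 and 5.23 at 2 dpf and did not pass the test (1.04 ± 0.57, adjusted p = 0.202), and tat, a tyrosine aminotransferase, rose by 3.30 ± 0.56 (adjusted p = 0.00195, with 1 of the 3 earlier arrays well above background) on 1 probe while its other changed by 0.41. Of 18 intestinal genes, 4 rose and 5 fell (22.22 and 27.78%, against 19.8 and 26.4% of all named genes). Villin vil1 had 2.11, 3.47 and 3.83 at 1 dpf and 5.61, 5.62 and 5.48 at 2 dpf and rose by 2.43 ± 0.33 (adjusted p = 0.000551, with 2 of the 3 earlier arrays well above background), the intestinal factor cdx1b was at least 2.56-fold higher (adjusted p = 0.000859), and fabp2 (16.37, 16.16 and 16.12 at 1 dpf and 14.41, 13.25 and 13.46 at 2 dpf) and fabp6, fatty acid- and bile acid-binding proteins, fell by 2.51 ± 0.21 (adjusted p = 3.45e-05) and 3.33 ± 0.59 (adjusted p = 0.00241). Which cells gave the fabp2 signal at 1 dpf, before the gut absorbs food, was not measured.

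Of 14 pituitary genes, 5 rose and 1 fell, and the fall was lost without replicate 1 and under the 75th percentile scaling (0 fell in each) and was not seen with E2. The gene smtlb, a somatolactin, was at background at 1 dpf and at 6.29, 7.98 and 8.33 at 2 dpf, at least 25.1-fold higher (adjusted p = 5.39e-05). The gene pomca, the precursor of corticotropin and melanocyte-stimulating hormone, had 2.78, 3.48 and 3.27 at 1 dpf and 6.33, 7 and 6.55 at 2 dpf and rose by 3.45 ± 0.11 (adjusted p = 7.17e-07, with 2 of the 3 earlier arrays well above background), and prl (1.54 ± 0.70, adjusted p = 0.131) and gh1 (0.53 ± 0.40, adjusted p = 0.37) did not pass the test. Their 1 dpf signals were low, 5.04, 2.57 and 1.44 for prl and 3.67, 2.77 and 3.19 for gh1. Of 33 clock and melatonin genes, 6 rose and 2 fell (18.18 and 6.06%, against 19.8 and 26.4% of all named genes). The pineal opsin exorh had 3.09, 4.86 and 5.04 at 1 dpf and 6.13, 6.19 and 7.05 at 2 dpf and rose by 2.13 ± 0.36 (adjusted p = 0.00173, with 2 of the 3 earlier arrays well above background), roraa, a nuclear receptor of the clock's second loop, rose by 1.96 ± 0.18 (adjusted p = 6.48e-05), and bhlhe41 fell by 1.1 ± 0.22 (adjusted p = 0.00482). Of the defining clock genes, per1b (0.41 ± 0.18, adjusted p = 0.124), per2 (-0.04 ± 0.14, adjusted p = 0.879) and clocka (0.07 ± 0.18, adjusted p = 0.829) did not pass the test. The stages, at 24 and 48 hpf, were 1 day apart.

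Of 85 replication and mitosis genes, 57 fell and 0 rose, with a median of -0.73 and a range of -1.94 to 0.28. Geminin (gmnn), which blocks a second round of replication, had 11.07, 11.07 and 10.39 at 1 dpf and 9.37, 8.93 and 8.41 at 2 dpf and fell by 1.94 ± 0.15 (adjusted p = 2.6e-05), the origin recognition subunit orc6 had 11, 10.61 and 10.40 at 1 dpf and 9.86, 8.85 and 8.56 at 2 dpf and fell by 1.58 ± 0.15 (adjusted p = 8.11e-05), and the helicase subunit mcm2 had 14.61, 14.80 and 14.70 at 1 dpf and 13.96, 13.32 and 13.41 at 2 dpf and fell by 1.14 ± 0.15 (adjusted p = 0.000521). In each the stages were separate. The gene mcm10 fell by 1.48 ± 0.23 (adjusted p = 0.0011), pcna, the sliding clamp of the replicating polymerase, by 0.90 ± 0.21 (adjusted p = 0.00937), and the mitotic kinase cdk1 missed the limit (-0.37 ± 0.13, adjusted p = 0.0528). The pair medians were -0.39 in pair 1 against -0.97 and -0.88 in pairs 2 and 3, and -0.90 without replicate 1. Of 23 germ line and oocyte genes, 17 fell and 0 rose, with a median of -1.47 and 1 rise without replicate 1. The primordial germ cell genes nanos3 (8.07, 6.87 and 7.11 at 1 dpf and 6.77, 5.96 and 6.14 at 2 dpf) and ddx4 (5.90, 5.96 and 5.90 at 1 dpf and 4.60, 4.60 and 5.00 at 2 dpf) both fell. The first, nanos3, fell by 1.06 ± 0.14 (adjusted p = 0.000443). The second, ddx4, fell by 1.19 ± 0.22 (adjusted p = 0.00266), and dazl changed by -0.31 ± 0.30, adjusted p = 0.49. The egg coat genes zp2.1 and zp3a.1, made by the oocyte, went the same way: zp2.1 fell by 3.08 ± 0.38 (adjusted p = 0.000311), and zp3a.1 was at least 5.74-fold lower (adjusted p = 3.45e-05). The number of germ cells per pool was not measured.

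Of 75 genes whose names start as those of cytosolic ribosomal proteins do, 11 fell and 0 rose, with a median of -0.13; 6 fell, with a median of -0.21, under the 75th percentile scaling. The share that fell (14.67%) lay below the 26.4% of all named genes. Among those not called, rpl13 changed by 0.05 ± 0.10, adjusted p = 0.79 and rps18 by 0.04 ± 0.10, adjusted p = 0.823. The largest fall was rpl7l1 (13.71, 13.46 and 13.44 at 1 dpf and 12.24, 11.93 and 12.09 at 2 dpf), by 1.46 ± 0.11 (adjusted p = 2.5e-05), whose product works in the making of the large subunit. Of 69 respiratory chain genes, 13 rose and 2 fell (18.84 and 2.90%, against 19.8 and 26.4% of all named genes), with 7 rises under the 75th percentile scaling and 6 without replicate 1. The rises were led by cox6a2, a muscle form of a cytochrome oxidase subunit, which had 7.09, 7.77 and 6.18 at 1 dpf and 8.38, 9.48 and 8.59 at 2 dpf and rose by 1.80 ± 0.23 (adjusted p = 0.000333), while cox4i1 changed by -0.03 ± 0.10, adjusted p = 0.874. Of 36 Hox genes, 8 fell and 3 rose (22.22 and 8.33%, against 26.4 and 19.8% of all named genes). Among them hoxb1a and hoxb1b, of the hindbrain, fell by 2.1 ± 0.23 (adjusted p = 0.000172, signals 7.14, 6.43 and 7 at 1 dpf and 4.92, 4.34 and 5.00 at 2 dpf) and 1.07 ± 0.12 (adjusted p = 0.000159), and hoxb13a, of the tail end, rose by 1.15 ± 0.33 (adjusted p = 0.0249). Vitellogenins and other estrogen markers showed 2 falls in 10, of which 1 (f13a1a.1) was at background on all 6 arrays, and esr1, the estrogen receptor α gene, changed by 0.03 ± 0.41, adjusted p = 0.977.

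The 2 to 3 dpf interval in the same vehicle series sets the first day against the next. Both steps share the 2 dpf arrays, so their values are given side by side. From 2 to 3 dpf, 17.4% of named genes rose and 14.5% fell, and the test of the step difference (1 to 2 dpf minus 2 to 3 dpf) passed for 997 genes (9.46%) in the positive and 1261 (12%) in the negative direction. Over all probes that test passed for 6264, and for 4067, 3125 and 3056 when 2 dpf replicate 1, 2 or 3 was left out. Lens crystallins changed by a median of 4.90 and then 0.65, and the first step was larger for 23 of 39. Sarcomere genes changed by 2.33 and then 0.30, larger first for 22. Neuronal genes kept rising, by 2.01 and 0.88, with 32 larger first. Photoreceptor genes changed by 0.56 and then 3.67, with the step difference negative for 22 of 40; opn1mw1 rose by 10.66 ± 0.60 (adjusted p = 1.71e-05) and opn1lw2 by 8.60 ± 0.78 (adjusted p = 0.000176) from 2 to 3 dpf. Pigment genes, of which 11 rose by 2 dpf, had 0 rises and 6 falls afterwards. Neural progenitor genes, split by 2 dpf, had 3 rises and 30 falls afterwards. Replication genes fell at a like pace, -0.73 and -0.63, with 51 further falls.

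**Figure D3:**
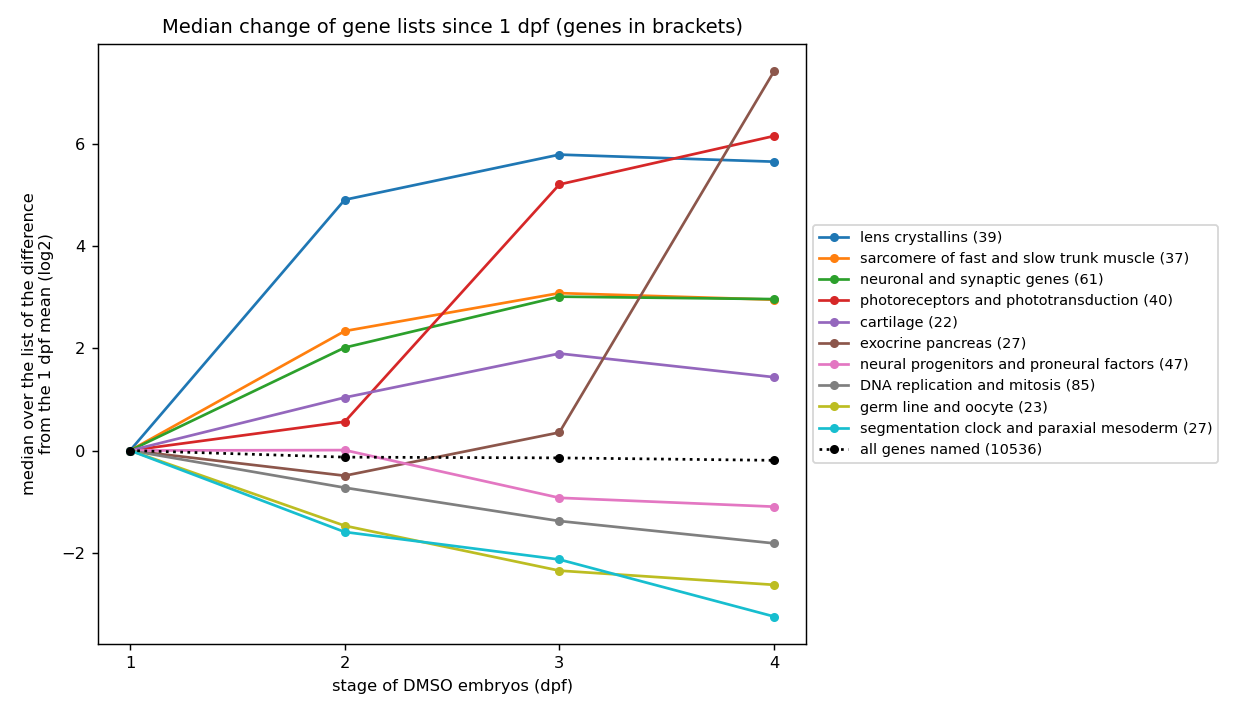
Median over each list (y axis, log2) of the difference between a stage mean and the 1 dpf mean at 1, 2, 3 and 4 dpf (x axis) in DMSO embryos, for 10 lists and all genes named. Lens, sarcomere and neuronal lists rise most before 2 dpf, photoreceptors between 2 and 3 dpf and exocrine pancreas between 3 and 4 dpf, and the replication, germ line and segmentation lists are lower at each later stage.

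The 6 E2 arrays of the same stages, which the vehicle comparison did not use, measured the same interval on other pools. Replicates 1 and 3 lay on the same slides as the DMSO arrays of those numbers, and replicate 2 on another slide. The paper states that clutches were divided into wells before exposure, so E2 and DMSO pools may share spawnings. The agreement below is therefore not that of an independent repeat. Of the 2084 genes that rose in DMSO, 2072 (99.42%) were also higher at 2 dpf with E2 and 1751 passed the test there; of the 2785 that fell, 2779 (99.78%) were also lower and 2076 passed. Over all 10536 named genes, called or not, 9557 (90.71%) changed in the same direction in both treatments. The list medians of the 3 DMSO and 3 E2 pairs can be set side by side: lens 4.66, 4.88 and 4.54 in DMSO and 4.56, 4.65 and 4.46 in E2, replication -0.39, -0.97 and -0.88 against -0.25, -0.73 and -0.81. Tested directly, the stage change differed between E2 and DMSO for 0 of 43603 probes by limma, with 458 at an unadjusted p under 0.05 and a smallest adjusted p of 0.0765, and the median SE of that difference was 0.449 on the log2 scale. Of genes chosen after their values were seen, fkbp5, a co-chaperone induced by glucocorticoids, had 6.43, 6.27 and 6.32 at 1 dpf and 10.19, 11.60 and 9.27 at 2 dpf in DMSO and rose by 4.01 ± 0.53 (adjusted p = 0.000443), whereas the E2 arrays had 6.25, 6.98 and 6.61 at 1 dpf and 6.28, 7.02 and 6.24 at 2 dpf. The 3 DMSO arrays of 2 dpf stood above the other 9 arrays. The difference of the changes was -4.07 ± 0.63 (adjusted p = 0.0765, not past the limit), and a second fkbp5 probe rose in DMSO by 4.03. Of the called genes, 2 had a call of the opposite sign with E2, but f13a1a.1 was at background on all 6 DMSO arrays and c2cd2l on all 12 arrays, so no direction in DMSO is read for them.

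**Figure D4:**
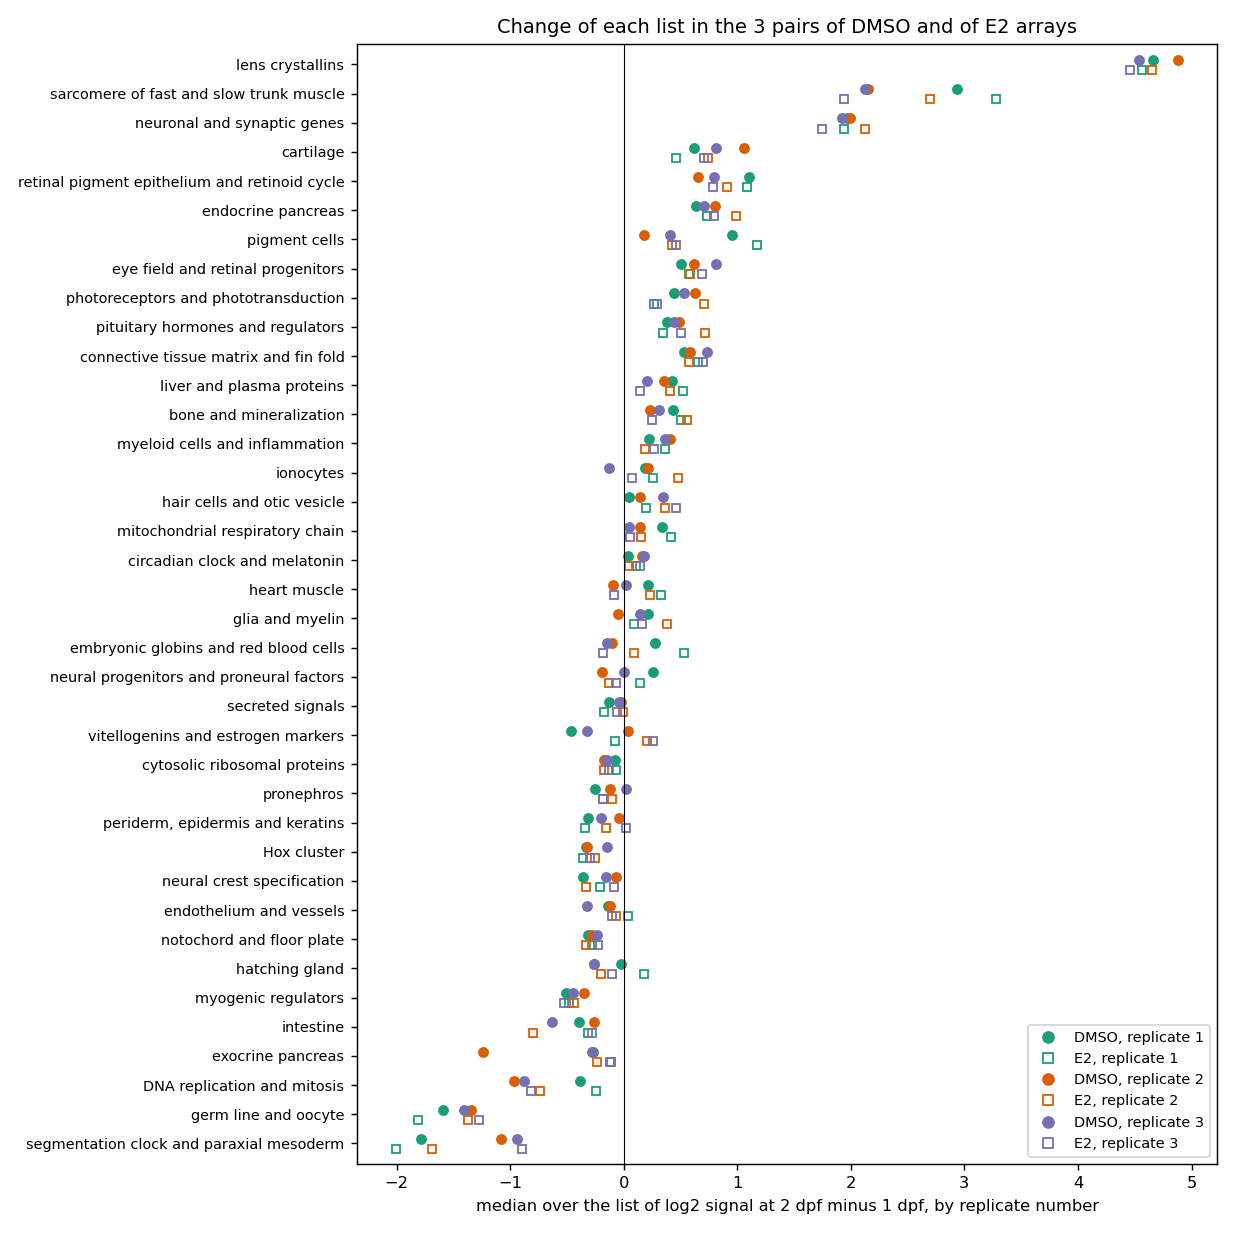
Median over each list (y axis) of the difference between the 2 dpf and the 1 dpf array of a replicate number (x axis, log2), filled circles for DMSO and open squares for E2, coloured by replicate number. Lens, sarcomere and neuronal lists lie right of 0 in all 6 pairs and the segmentation, germ line and replication lists left of 0 in all 6, with replicate 1 at 1 end of the range in both treatments for the sarcomere, segmentation and replication lists.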

How the data were processed

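Total RNA of pools of whole embryos was labelled with 1 dye and hybridized to Agilent zebrafish oligonucleotide arrays. The authors deposited the scanner output of every array, and the value used is the processed signal, a fluorescence intensity after subtraction of the local background and a spatial trend by the scanner software. The deposited intensities were not yet normalized between arrays, and the value table of the series held the same intensities (1266160 of 1266160 values equal within a relative tolerance of 1e-06). The file headers name Feature Extraction 10.7.3.1 and scanner G2505C, whereas the submitters' processing notes name version 11.0.1.1.

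Control spots and outlier spots (4 to 25 on the 6 arrays) were left out. Log2 intensities were quantile normalized over the 14 DMSO arrays, the spots of a probe were averaged, and limma 3.58.1 in R 4.3.3 was fitted with the 4 stages and the replicate number as a fixed block. P-values were adjusted over 43603 probes by the Benjamini-Hochberg method, and a probe was called at an adjusted p under 0.05. The difference between treatments was fitted on the 28 arrays. The arrays were paired by the replicate numbers of the labels. Deviations of same-numbered arrays from their stage means correlated at 0.461, 0.39 and 0.523, and those of different numbers at -0.371 to -0.146. Such deviations cancel within a stage, so the negative values follow from the positive ones and add no separate evidence. Same-numbered arrays also shared a slide, so the correlations cannot tell a shared spawning from a shared slide.

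Accessions of 15163 of 19212 probes with a RefSeq accession were matched to current symbols, giving 10536 genes, each represented by the probe that was brightest on average over the DMSO arrays. Of 1676 genes sought for 38 lists, 1158 were on the array, and 56 are in several lists. Named are the 12 genes with the largest rise and the 12 with the largest fall that passed the limit, moved the same way in 3 of 3 pairs and were well above background on all 3 arrays of the higher stage, and in each list up to 5 called members with the largest change, at most 3 per direction, plus defining markers. Not all genes named by this rule are given in the text. Members and lists were chosen with earlier results of these data known, and 9 genes (fkbp5, f13a1a.1, c2cd2l, ndr1, ndr2, spaw, opn1mw2, guca1aa and gngt1) were named after their values were seen. Of these, f13a1a.1, guca1aa and gngt1 also met the rule for lists. A bound on a fold change sets the brighter stage's mean against the mean, over the arrays of the dimmer stage, of the higher of the probe's own signal and the lowest signal well above background on that array. The p-values measure the spread between pools that is left after the replicate block, over all arrays of a fit. Differences shared by the arrays of a replicate number are taken out by that block. Other normalizations, blocks, array weights, filters, thresholds and the leaving out of each array were tried. The model was tested on simulated data. Coordinates and sequences were not used here.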

Additional observations from a re-analysis of the deposited data

Results flagged for a closer look

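The pair differences of f13a1a.1, which encodes a coagulation factor XIII subunit, had opposite signs with DMSO and with E2, but the DMSO signals lay within background, so no direction is read there. In DMSO its signals were 2.41, 1.69 and 1.89 at 1 dpf and 0.54, 0.57 and 0.57 at 2 dpf, none of them well above background, with pair differences of -1.87, -1.121 and -1.318. With E2 they were 2.159, 1.057 and 2.328 at 1 dpf, not well above background either, and 5.891, 5.371 and 4.894 at 2 dpf, well above background on all 3 arrays. The fitted change with E2 minus that with DMSO was 4.905 ± 0.7219 (SE), with an adjusted p of 0.0765 by limma over all probes, which did not pass the limit. With array weights the same difference was 4.623 ± 0.393 (SE, adjusted p = 1.4e-05 by limma) and passed. Both values are taken against signals at background and are no measure of size.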

How the results depend on the processing

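The count of 14232 probes changed from 1 to 2 dpf was 9474 with no replicate block and 6897 when a log2 change of at least 1 was also asked for. It stayed within 1.5 times under every other alternative: 13866 with scaling to the 75th percentile (where 49.0% of calls were rises, against 44.8%), 13549 with normexp background correction (on the median signal, the mean signal not being used here), 11623 with the 6 arrays alone, 10928 with all 28 arrays, 17103 with slide and 12886 with scan batch as block, 17150 with array weights, 14200 without dim probes, 12004 at the methods' thresholds, and 10550 to 13030 without 1 of the 6 arrays. Alternatives added after seeing the data left out replicate 1 at both stages (13434 probes) or recounted the lists. The 0 probes whose stage change differed between E2 and DMSO became 3 with the 75th percentile, 1 with no replicate block, 2 with array weights, 0 with the 12 arrays alone, and 0 to 8 without 1 array, with 8 reached without 1 dpf E2 replicate 3. The 6264 probes whose 2 steps differed became 2947 with no replicate block, 10187 with array weights, 6025 with the 75th percentile, 4616 with all 28 arrays, and 3056 to 6848 without 1 array, the low counts being 4067, 3125 and 3056 without 2 dpf DMSO replicates 1, 2 and 3. The causes were not tested. Of 205 called genes among the 264 named, 147 kept direction and call under every setting, and none changed sign except on another probe of the gene, which gave -0.002185 for mpx, -0.3649 for mstnb and -0.03238 for pnp4a. Of the called genes given in the report, cdh1, crygs1, dld, gata1a, gch2, guca1aa, hand2, hoxb13a, krt5, myf5, otop1, pnp4a, serpinh1b, smyd1b, spi1b and vtg5 lost the call without at least 1 array or without replicate 1, and bhlhe41, c2cd2l, camk2d1, cdx1b, cpox, elavl3, f13a1a.1, f9a, fbln1, gngt1, her8a, ihhb, mstnb, nanos3, nkx2.5, opn1sw2, pcna, sox3, sox9b, sp7, tfec, tnni2b.1 and vil1 lost it under another fit, scaling or background correction alone. The genes ndr1, ndr2 and opn1mw2, also given, were not among the 264, so their calls were not followed here. Under the 75th percentile scaling 9 of the 205 lost the call, myod1, foxd3, tp63, cdk1 and cdh17 passed the limit as falls, and opn1lw2 passed as a rise. Of the 59 not called, 32 changed sign in some setting. The comparison with the deposited series table was not run, since it holds the same values. Precision is limited by 3 pools a stage, by the spread of replicate 1 and, for the genes given as bounds, by signals not above background.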
